A study of Mus musculus with 2 samples.

Results

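Myeloid granule genes were followed together with Cebpa and Irf8, 9 genes of the 28692 in the matrices: Mpo, Prtn3, Elane, Ctsg, Ms4a3, Lyz2, Csf1r, Cebpa and Irf8. They were chosen by name, as genes of the neutrophil and monocyte programmes, to set low-level detection in early progenitors beside full myeloid expression in the same libraries. The study cultured Sca-1+ cKit+ haematopoietic stem and progenitor cells from the liver of wild type CD1 mouse embryos at E13.5, after depletion of TER-119+ cells. All wells were coated with the Notch ligand DL4 at 10 µg/mL and the adhesion molecule VCAM-1 at 2.32 µg/mL and seeded with 1000 cells, and no uncoated control was analysed here. It was measured in 2 droplet libraries, FL001 and FL002. The study describes its samples as pools of several culture times and of cells captured straight after the sort, so a gate can mix these, and some cells may not have been on coated wells. The labels give neither the times in a library nor what separates the libraries, so differences between the libraries are given as values and no test between groups was possible.

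Neutrophils store proteases and myeloperoxidase in primary (azurophilic) granules, and the genes for them are switched on early, in granulocyte-monocyte progenitors. Secondary granule genes such as Ngp and Camp follow later, when the primary granule genes are already shut off. C/EBPα drives the entry into the granulocyte-monocyte lineage, IRF8 favours monocytes and dendritic cells over neutrophils, and multipotent progenitors can hold transcripts of several lineages at low level before they commit, which is called priming.

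Barcodes were kept from 1500 unique molecular identifiers (UMIs, single captured transcripts) and 500 genes upward, if mitochondrial UMIs made up 10% or less. They numbered 1788 in FL001 and 4100 in FL002, with median depths of 7722 and 4752.5 UMIs. Gates were set on raw UMIs of 10 genes that are not members. The Lmo2+Mef2c gate required 2 or more UMIs of these progenitor transcription factor genes and at most 1 of Cd3g, a T cell receptor component, and held 288 barcodes in FL001 and 568 in FL002. Barcodes of the same kind with 2 or more UMIs of Ighm, Ebf1 and Cd79b together were set apart as the B-primed gate, with 140 and 156. The S100 gate required 10 or more UMIs of S100a8 and S100a9, genes of neutrophils and monocytes, and held 17 and 13 barcodes. The Tcf7 gate (239 and 648 barcodes) required Tcf7 with at most 2 UMIs of Cd3g, the Cd3g gate (972 and 2225) 3 or more UMIs of Cd3g, and the Il2ra gate (738 and 1668) at least 1 UMI of Il2ra, which marks early T cell precursors. Gates may overlap: 4 and 5 barcodes of the S100 gate were also in the Lmo2+Mef2c gate, and 645 and 1352 of the Il2ra gate were also in the Cd3g gate. The 2 libraries had 10 kept barcodes in common, and leaving these out changed none of the 7 counts of members past a fold that were recomputed without them.

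The gates were checked against marker lists. In the Lmo2+Mef2c gate the 6 progenitor markers summed to 502 CPM (UMIs of a gene scaled to a total of 1000000 in the gate) in FL001 and 478 in FL002, against 81.6 and 80.7 in the Cd3g gate, and T lineage markers summed to 55.1 and 58.2 against 1031 and 873. The same gate also held megakaryocyte and erythroid transcripts at 1086 and 263 CPM, for the most part Pf4, and the B-primed gate held them at 12.9 and 580. In the B-primed gate the 6 B and common lymphoid markers reached 62.2 and 86.3 CPM, against 6.07 and 7.12 in the Lmo2+Mef2c gate and 71.3 and 60.6 in the Cd3g gate. Of the B-primed barcodes, 122 of 140 in FL001 and 133 of 156 in FL002 had no UMI of Ebf1, the factor that specifies B cells, so its name stands for the rule and not for a B cell. Neutrophil markers summed to 13603 and 5068 CPM in the S100 gate, with Retnlg at 0 in both libraries.

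In GENCODE M21 on build GRCm38, Mpo lies at chr11:87793581-87804413, Prtn3 at chr10:79874476-79883174, Elane at chr10:79886247-79888215, Ctsg at chr14:56099881-56102574 and Ms4a3 at chr19:11629496-11640851. Lyz2 lies at chr10:117277331-117282321, Cebpa at chr7:35119293-35121928 and Irf8 at chr8:120736358-120756694. Mpo overlaps Gm11505, Prtn3 overlaps Plppr3, Cebpa overlaps Gm45091 and Csf1r overlaps Hmgxb3, each on the opposite strand, while Irf8 overlaps Gm20388 and Csf1r overlaps Mir6983 on its own strand. Whether strand was used in counting is not given in the sources used here, so reads of these pairs may not have been told apart.

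The regions before the RefSeq starts of 3 members are shown because these genes encode related serine proteases of the same granules (proteinase 3, neutrophil elastase and cathepsin G) and yet were detected in different ways. Prtn3 and Elane are neighbours on chromosome 10, 3072 bases apart and on the same strand. The sequences are from RefSeq on build GRCm38.p6, run 5′ to 3′ on the gene's strand, begin 250 bases before the RefSeq start of transcription and stop where GENCODE M21 annotates an exon. The Prtn3 stretch lies inside the span that GENCODE gives this gene, whose annotation reaches further upstream than the RefSeq start. Capitals mark AGGAAGT, a sequence like those bound by the myeloid factor PU.1.
Prtn3, chr10:79879417-79879613, + strand: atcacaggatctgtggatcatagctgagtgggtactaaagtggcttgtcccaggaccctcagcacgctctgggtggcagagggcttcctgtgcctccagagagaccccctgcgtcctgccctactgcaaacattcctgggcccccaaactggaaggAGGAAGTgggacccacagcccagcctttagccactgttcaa
Elane, chr10:79886062-79886246, + strand: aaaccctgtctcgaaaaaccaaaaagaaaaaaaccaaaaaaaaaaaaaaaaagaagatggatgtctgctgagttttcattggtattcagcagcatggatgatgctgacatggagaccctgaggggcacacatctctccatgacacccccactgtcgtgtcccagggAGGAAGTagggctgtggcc
Ctsg, chr14:56102575-56102824, - strand: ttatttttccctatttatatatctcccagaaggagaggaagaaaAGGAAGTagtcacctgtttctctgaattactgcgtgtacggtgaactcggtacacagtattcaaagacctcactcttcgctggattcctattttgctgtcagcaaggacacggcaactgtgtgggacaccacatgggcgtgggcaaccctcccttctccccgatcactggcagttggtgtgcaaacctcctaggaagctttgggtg

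The motif was chosen after the sequences had been seen and was searched on both strands. It began 94 bases before the start in Prtn3, 84 in Elane and 206 in Ctsg, and was also in the 250 bases before Mpo and Lyz2, which made 5 of the 9 windows found for 8 members. Of all 32851 windows of that length 7.69% held it. TTGCNNAA, a sequence like those bound by C/EBP factors, was in 0 of the 9 windows and in 9.56% of all. A match is a description of the letters in these windows and not evidence of binding.

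Mpo, which encodes myeloperoxidase, was the most abundant member in the Lmo2+Mef2c gate, with 1019 CPM (95% interval 978 to 1061) for FL001 and 715 (686 to 744) for FL002. A UMI of Mpo was found in 72.6% and 62.9% of these barcodes, against 16.8% and 17.1% in the Cd3g gate, where median depths were 7729 and 4338 UMIs against 7448.5 and 5448.5. The positive barcodes of the Lmo2+Mef2c gate held 11.2 and 6.46 UMIs each on average, while the median barcode of the gate held 2 and 1. Mpo was thus detected in most barcodes of the gate, at a few UMIs in most of them. In the S100 gate Mpo reached 6741 CPM (6308 to 7196) and 5986 (5438 to 6574), with 75.1 and 39.7 UMIs per positive barcode. The intervals of all levels and shares cover counting error only, and they treat UMIs as independent although many came from the same barcode.

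Prtn3, the proteinase 3 gene, was found less widely than Mpo and at a lower level, at 507 CPM and in 60.1% of barcodes of the Lmo2+Mef2c gate in FL001 and at 376 CPM and in 49.3% in FL002. In the Cd3g gate it was found in 9.57% and 5.57% of barcodes. In the S100 gate its levels were 4736 and 5027 CPM.

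Lyz2 encodes lysozyme, a secreted enzyme of neutrophils and macrophages, and was the third member with broad detection. It was at 192 and 127 CPM and in 49.7% and 37.0% of barcodes of the Lmo2+Mef2c gate, but at only 3.1 and 1.95 UMIs per positive barcode. In the Cd3g gate 1.95% and 1.71% of barcodes had a UMI of Lyz2, and every barcode of the S100 gate had at least 1, at 3704 and 3698 CPM. Its paralog Lyz1 was at 0 CPM in the Lmo2+Mef2c gate and at 9.68 CPM in the S100 gate.

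Elane, the neutrophil elastase gene, showed the opposite pattern. In the Lmo2+Mef2c gate it was found in 5.21% of barcodes in FL001 (95% interval 2.94 to 8.44) and 2.11% in FL002 (1.10 to 3.66), and each positive barcode held 28.2 and 22.6 UMIs on average. These are more UMIs per positive barcode than for Mpo, although the level of Elane in the gate, 183 and 83.9 CPM, was far lower. In the S100 gate Elane was at 4759 and 4315 CPM, and in the Cd3g gate at 0.239 and 5.54.

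Ms4a3, a membrane protein gene known as a marker of granulocyte-monocyte progenitors, and Ctsg lay on the same side. Ms4a3 was in 6.25% and 4.05% of Lmo2+Mef2c barcodes with 10.3 and 7.04 UMIs in each, and Ctsg in 15.6% and 10.6% with 11.8 and 5.12. Ctsg thus lay between the broad and the rare members. The S100 gate held 2013 and 2096 CPM of Ms4a3 and 2334 and 2589 of Ctsg.

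Csf1r, the receptor for the macrophage growth factor M-CSF, and Cebpa, the C/EBPα gene, were low everywhere. In the Lmo2+Mef2c gate Csf1r was at 8.24 and 8.05 CPM and Cebpa at 9.97 and 6.81, with 1.46 and 1.37 UMIs of Csf1r and 1.05 and 1.1 of Cebpa per positive barcode. At 0.206% and 0.225% of Cd3g barcodes for Csf1r, and 0 of 972 and 4 of 2225 for Cebpa, both were nonetheless found more widely in the Lmo2+Mef2c gate, where 4.51% and 3.35% of barcodes had Csf1r and 7.64% and 3.52% had Cebpa. Irf8 was at 34.3 and 33.5 CPM in the Lmo2+Mef2c gate, in 39 of 288 and 57 of 568 barcodes, against 3.09% and 2.02% of Cd3g barcodes. In the S100 gate these 3 genes rested on few UMIs: 4 and 2 of Csf1r, 2 and 3 of Cebpa, and 18 of Irf8 in 3 barcodes of FL001 with 0 in FL002, which allows up to 50.5 CPM (upper 95% limit).

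**Figure D1:**
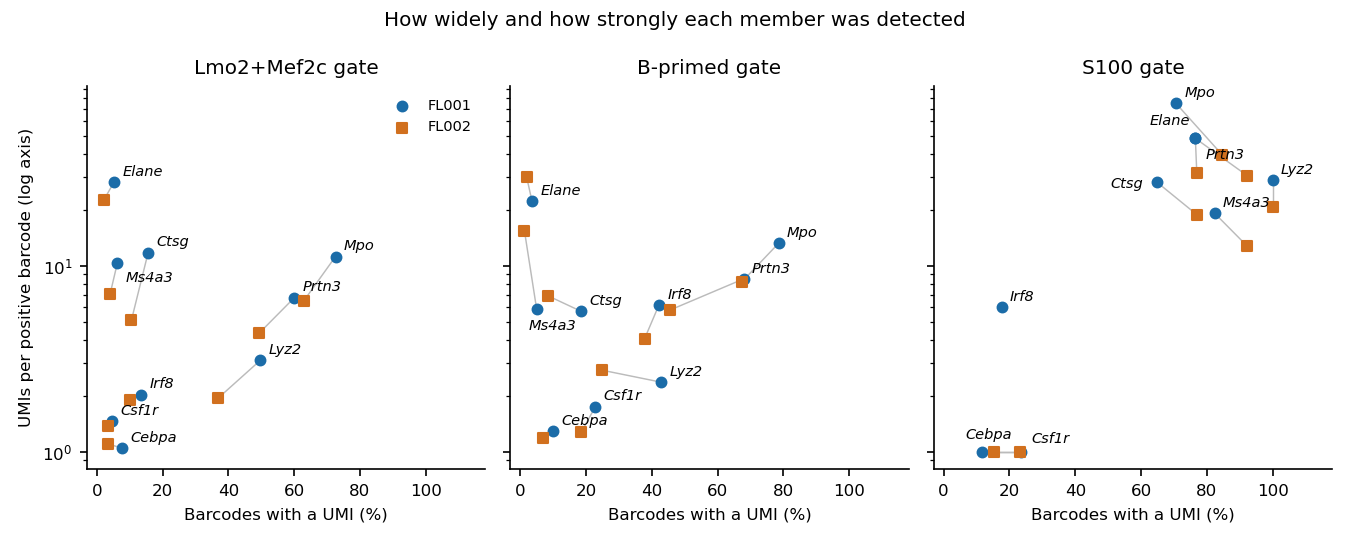
Share of barcodes with at least 1 UMI (horizontal axis, percent) against the mean UMIs per positive barcode (vertical log axis) for each member in the Lmo2+Mef2c, B-primed and S100 gates; circles are FL001, squares FL002, and a grey line joins the libraries of a member. In the Lmo2+Mef2c gate Mpo, Prtn3 and Lyz2 lie to the right, and Elane lies at the upper left, with 5.21% and 2.11% of barcodes and 28.2 and 22.6 UMIs. Irf8 has no FL002 point in the S100 gate because it had 0 UMIs there.

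The contrast between the broad and the rare members was also seen at equal depth. After each barcode was thinned to 1500 UMIs, Mpo was still in 42.0% and 37.0% of Lmo2+Mef2c barcodes and 4.22% and 6.20% of Cd3g barcodes, Prtn3 in 25.3% and 24.6%, and Lyz2 in 20.8% and 16.2%. Elane was then in 3.82% and 1.76%, close to its unthinned shares. A Cebpa share of 0.347% and 0.704% after thinning rested on so few UMIs that it gives no order among members.

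The level of 6 members was at least 4-fold higher in the S100 gate than in the Lmo2+Mef2c gate: Mpo, Prtn3, Elane, Ctsg, Ms4a3 and Lyz2. Of the 8834 genes with at least 5 CPM over all kept barcodes, 1.49% passed the same fold in that direction. Cebpa, at 2.94 CPM, was the member below this minimum. With both libraries summed, the ratio was smallest for Mpo, at 7.69 (95% interval 7.24 to 8.18), then 11.2 for Prtn3, 16 for Ctsg, 24 for Lyz2, 32.5 for Ms4a3 and 36.7 (33.2 to 40.5) for Elane. Among these 6, the rise was smallest for the members detected most widely in the Lmo2+Mef2c gate, Mpo and Prtn3. The 4 and 5 barcodes that were in both gates counted on both sides of these ratios. In FL001 those 4 held 50, 59, 95 and 99 of the 423 Elane UMIs of the Lmo2+Mef2c gate. They held 69, 89, 74 and 62 of its 2350 Mpo UMIs. The order of the ratios and their intervals thus cannot be read apart from this overlap. By library the ratios were smaller in FL001 than in FL002 for all 6, and differed most for Ctsg, at 10.1 and 27.2, and Elane, at 25.9 and 51.4. The ratios of Csf1r (3.57, 1.24 to 8.4), Cebpa (2.98, 0.922 to 7.47) and Irf8 (2.58, 1.5 to 4.19) rested on 6, 5 and 18 UMIs in the S100 gate. Over the 9 members the median log2 ratio, with 1 CPM added to both levels, was 3.49, and over all genes tested it was -0.35.

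**Figure D2:**
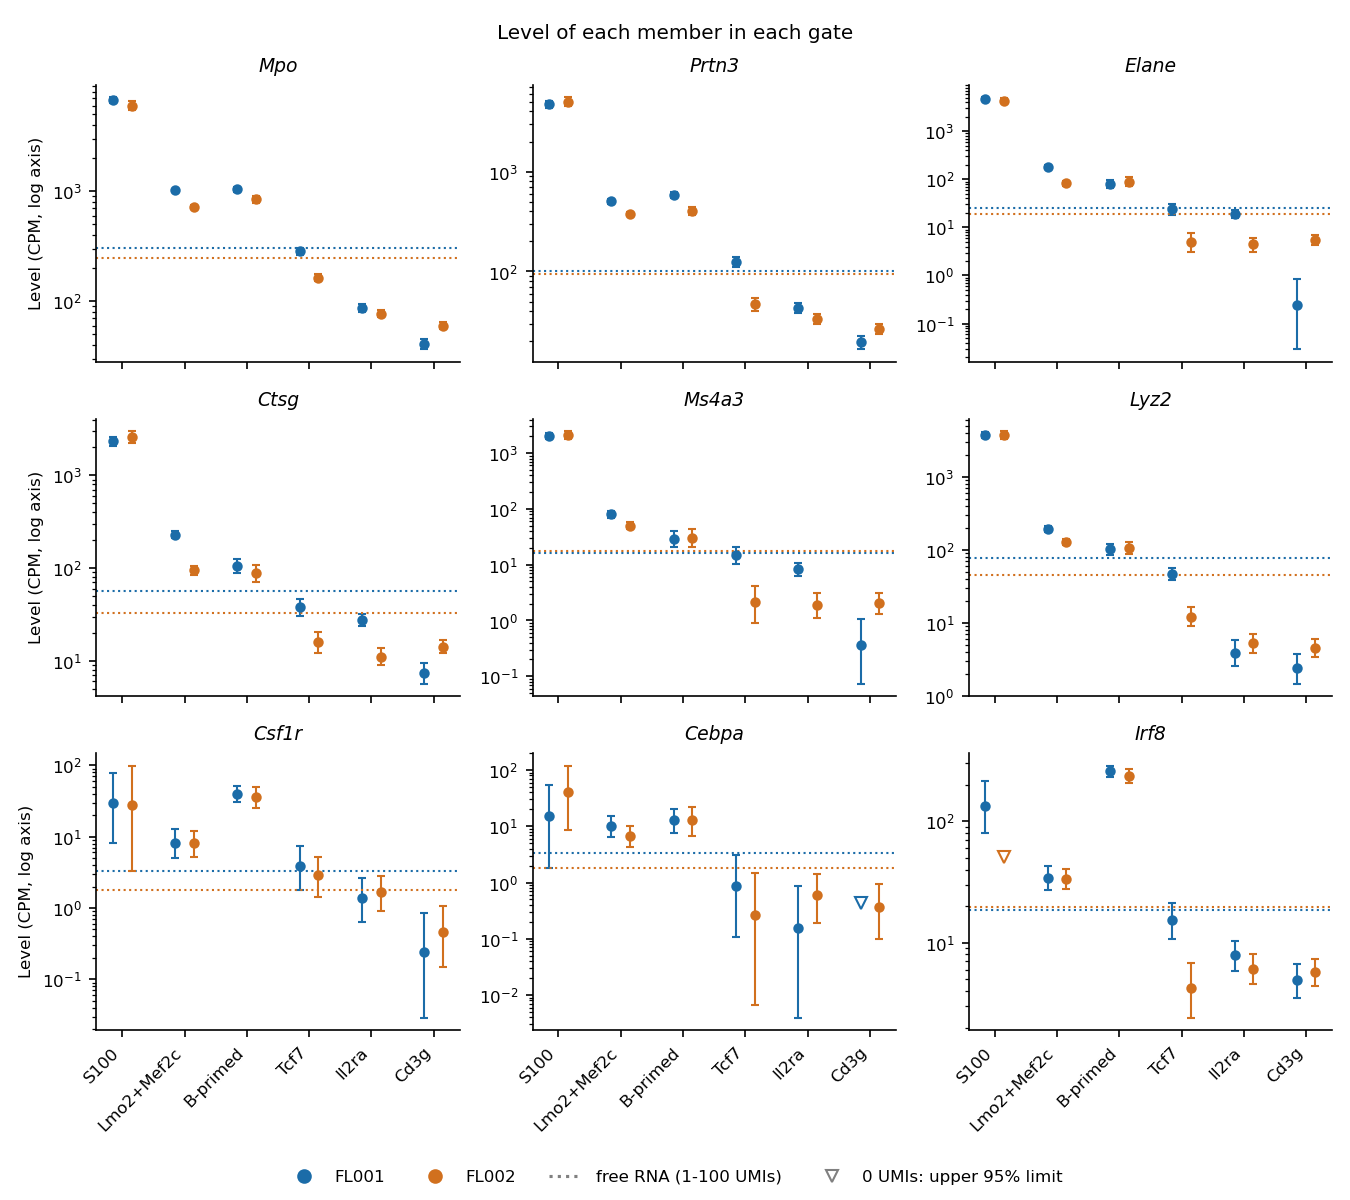
Level of each member (CPM, log axis) in the 6 gates, 1 panel per member; points are the libraries with exact 95% Poisson intervals, dotted lines are the levels in barcodes of 1 to 100 UMIs of the same library, and open triangles are upper limits where no UMI was seen. The granule genes are highest in the S100 gate, Irf8 in the B-primed gate, and the Cd3g gate lies below the dotted lines for all 9.

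The S100 gate was not uniform in the members. In 12 of 17 barcodes of FL001 and 9 of 13 of FL002 Mpo had 20 or more UMIs, a limit chosen after the values were seen. These barcodes had 51 to 135 and 27 to 73 UMIs of Mpo, a median of 49 and 35 of Elane, and a median of 8 and 2 of Lyz2. In the other 5 and 4 barcodes Mpo had 0 UMIs in FL001 and 0 to 9 in FL002, Elane had 0 or 1, and Lyz2 had 46 to 87 and 28 to 92. Lyz2 was at 18486 and 15233 CPM in these, against 1240 and 1092 in the Mpo-rich ones. Summed over these barcodes, Ngp, a secondary granule gene, ran the same way as Lyz2, at 46554 and 11443 CPM against 707 and 67.2. It was less even than Lyz2: the Mpo-poor barcodes of FL002 had 34, 117, 2 and 1 UMIs of Ngp, and 1 Mpo-rich barcode of FL001 had 75. The Mpo-poor barcodes were also shallower, with median depths of 3568 and 3184.5 UMIs against 10233.5 and 6557. None of the Mpo-poor barcodes was in either Lmo2+Mef2c gate, and 5 of the 12 and 5 of the 9 Mpo-rich ones were.

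**Figure D3:**
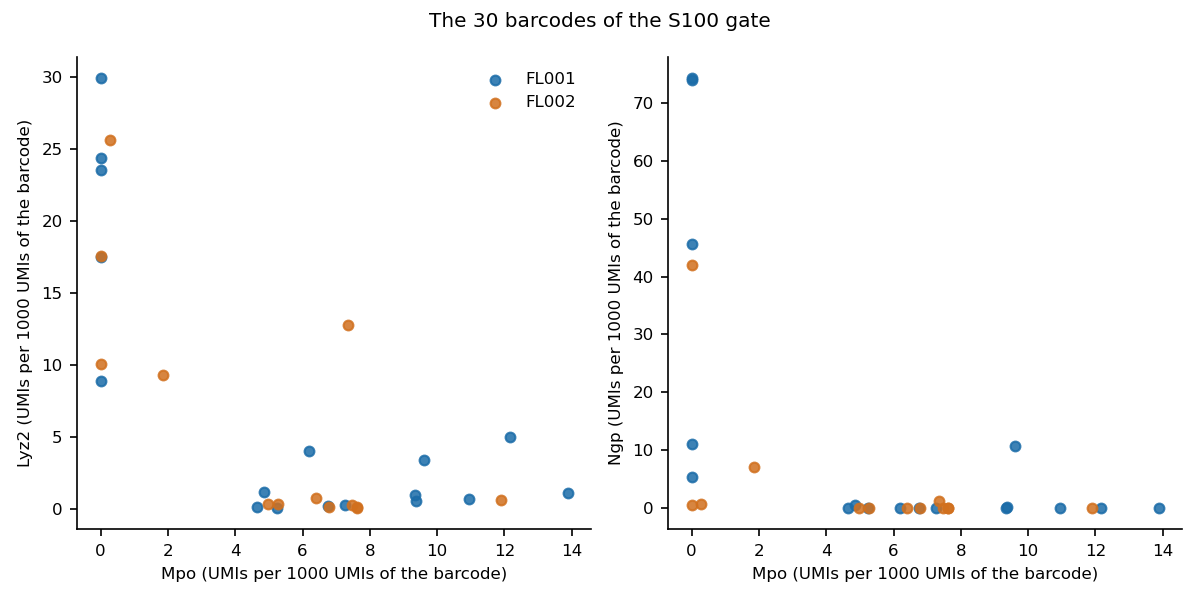
The 30 barcodes of the S100 gate, 1 point each, coloured by library: Mpo against Lyz2 (left) and against Ngp (right), all as UMIs per 1000 UMIs of the barcode on linear axes. The points with the most Lyz2 and Ngp lie at or near 0 for Mpo, and the 21 Mpo-rich barcodes lie to the right.

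The UMIs of the rare members in the Lmo2+Mef2c gate came from a handful of barcodes. In each library 9 barcodes of the gate, 3.12% in FL001 and 1.58% in FL002, had 5 or more UMIs of Elane and held 97.6% and 98.2% of all its UMIs there. The same barcodes held 81.2% and 84.0% of the Ms4a3 UMIs and 72.7% and 58.6% of the Ctsg UMIs. They held less of the broad members: 39.6% and 17.6% of the Mpo UMIs, 45.1% and 30.7% of Prtn3, and 32.7% and 10.5% of Lyz2. In these barcodes Mpo was at 7842 and 5420 CPM and Prtn3 at 4444 and 4967, levels like those of the S100 gate, and 4 and 5 of the 9 were in that gate as well. Their median depth was 13268 and 7067 UMIs.

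The other barcodes of the gate carried the low level. Where Elane had 0 UMIs (273 and 556 barcodes, median depths 7146 and 5409.5), Mpo was at 585 and 575 CPM in 71.1% and 62.1% of barcodes, Prtn3 at 239 and 252 CPM, and Lyz2 at 117 and 116. The libraries came closer for these members than over the whole gate. Ms4a3 fell to 6.59 and 4.47 CPM and Ctsg to 47.5 and 34.8. Between the barcodes with 5 or more and those with 0 UMIs of Elane, Ms4a3 differed 193-fold and 405-fold and Ctsg 68.5-fold and 68.8-fold, but Mpo 13.4-fold and 9.42-fold. Cebpa was at 25.3 and 53.3 CPM in the former, on 3 and 4 UMIs, and at 8.47 and 5.43 in the latter.

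The few barcodes with Cebpa were set beside the rest in the same way. The 22 and 20 barcodes of the Lmo2+Mef2c gate with a UMI of Cebpa had Mpo at 2693 and 2629 CPM, against 829 and 624 in the 266 and 548 without one. Elane was at 573 and 1160 CPM against 139 and 33.1. The barcodes with Cebpa were deeper, with median depths of 10928.5 and 6719 UMIs against 7124 and 5418. As 1 or 2 UMIs decide the split, a barcode without Cebpa is not shown to lack it.

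**Figure D4:**
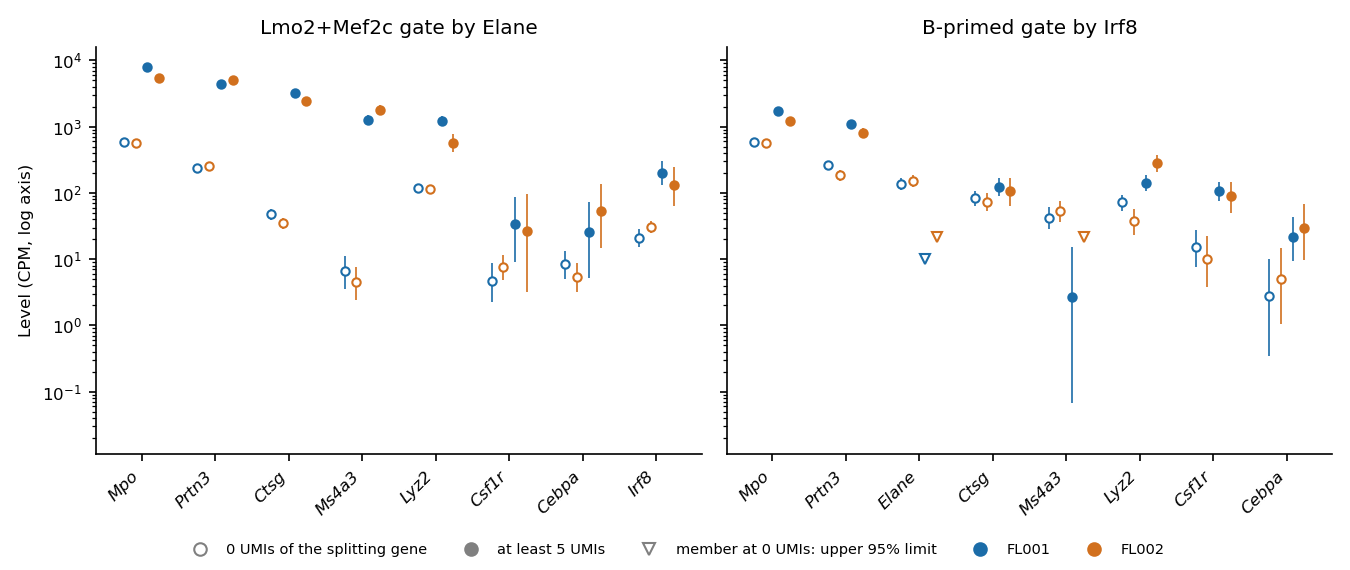
Levels (CPM, log axis, 95% Poisson intervals) of the other members in the Lmo2+Mef2c gate by Elane (left) and in the B-primed gate by Irf8 (right); open circles are barcodes with 0 UMIs and filled circles barcodes with 5 or more UMIs of the splitting gene, coloured by library, and open triangles are upper limits where no UMI was seen. On the left Ms4a3 and Ctsg move most, and on the right Mpo, Prtn3 and Csf1r are higher in the barcodes with Irf8, while Elane is at 0 there and in 2 barcodes of each library without Irf8.

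In the B-primed gate 2 members, Csf1r and Irf8, were at least 2-fold higher than in the Lmo2+Mef2c gate, in both libraries, against 1.25% of all genes tested. Csf1r reached the minimum of 5 CPM, at 5.14 over all kept barcodes, through the 93 UMIs of the B-primed gate itself. It thus cannot be weighed against that share. In the opposite direction 1 member passed, Ms4a3, against 2.11%, and in FL002 alone 0 did. In the B-primed gate Irf8 was at 259 CPM (233 to 288) for FL001 and 235 (206 to 267) for FL002, and the ratio of the Lmo2+Mef2c level to it was 0.136 (0.114 to 0.160) with both libraries summed. Irf8 was in 42.1% and 37.8% of B-primed barcodes, with 6.15 and 4.07 UMIs per positive barcode. Csf1r was at 40 and 36.3 CPM and in 22.9% and 18.6% of barcodes, with a ratio of 0.212 (0.145 to 0.305). Cebpa was at 12.9 and 12.7 CPM and in 10.0% and 7.05% of barcodes, with a ratio of 0.635 whose interval, 0.393 to 1.04, included 1. Mpo and Prtn3 differed little, with ratios of 0.877 (0.834 to 0.922) and 0.854 (0.797 to 0.916), and were in 78.6% and 67.3% and in 67.9% and 45.5% of B-primed barcodes. The Ms4a3 ratio of 2.11 (1.64 to 2.76) rested on FL001, where it was at 80.7 against 29.3 CPM, while it was at 50.2 against 30.4 in FL002, below 2-fold. B-primed barcodes were deeper, with medians of 9344 and 6167.5 UMIs, and after thinning Irf8 was in 17.9% and 19.2% of them against 4.86% and 3.7% in the Lmo2+Mef2c gate.

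Within the B-primed gate, Irf8 ran with Csf1r, Mpo and Prtn3. The 28 and 21 barcodes with 5 or more UMIs of Irf8 had Csf1r at 105 and 88.6 CPM, against 15.5 and 10.2 in the 81 and 97 barcodes with 0. Mpo was at 1746 and 1199 CPM against 596 and 569, and Prtn3 at 1087 and 797 against 261 and 187. The Irf8 barcodes thus held more of both. Elane had 0 UMIs in all 49 of them, which allows up to 9.97 and 21.8 CPM (upper 95% limits). In those without Irf8 it was at 138 and 153 CPM, but in only 2 of 81 and 2 of 97 barcodes, too few for the share of barcodes with Elane to be told apart. The barcodes rich in Irf8 had median depths of 12798.5 and 8030 UMIs against 8414 and 5764. Ebf1, which helped to set the gate, had 1 UMI in them in FL001 and 0 in FL002, against 81.8 and 76.5 CPM in the barcodes without Irf8.

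The B-primed barcodes were also set apart by Ebf1. The 18 and 23 B-primed barcodes with a UMI of Ebf1 had Irf8 at 159 and 46.7 CPM, against 273 and 262 in the 122 and 133 without. Csf1r had 1 and 0 UMIs in the Ebf1 barcodes and was at 44.5 and 41.5 CPM in the others. Elane and Ms4a3 had 0 UMIs with Ebf1 in both libraries, with upper 95% limits of 22.5 and 28.7 CPM. Without Ebf1, Elane was at 90.6 and 102 CPM, from 5 of 122 and 3 of 133 barcodes, and Ms4a3 was in 7 and 2. These are too few for the shares of barcodes with and without Ebf1 to be told apart. The limits also treat UMIs of the same barcode as independent. Mpo was still at 708 CPM with Ebf1 in FL001 (585 to 850) and at 210 in FL002 (139 to 306), against 1088.5 and 935 without. Their median depths were 7634.5 and 5492 UMIs against 9477.5 and 6282. The splits by Cebpa, Elane, Irf8 and Ebf1 were chosen after results of these data were known and are descriptions.

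All 9 members were at least 4-fold higher in the Lmo2+Mef2c gate than in the Cd3g gate, in both libraries, against 1.47% of all genes tested. The ratios with both libraries summed ran from 6.30 (4.93 to 8.08) for Irf8 to 46.9 (31.5 to 72.8) for Ms4a3, and that of Mpo was 16.2 (15.2 to 17.4). The libraries differed in size: the ratio of Mpo was 25.0 in FL001 and 11.9 in FL002, that of Lyz2 80.4 and 27.9, and that of Ms4a3 225 (75.9 to 1102) and 24. Elane, on 2 UMIs in the Cd3g gate of FL001, had 768 (211 to 6363) there and 15.2 in FL002, so the order of the members was not the same in the libraries. Cebpa, with 4 UMIs in 3197 Cd3g barcodes, had 39.4 with an interval of 14.4 to 151. The median log2 ratio, with 1 CPM added, was 4.0 over the members and 0.02 over all genes tested.

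With both libraries summed, the Tcf7 gate lay between the Lmo2+Mef2c and Cd3g gates for all 9 members. In FL002 this did not hold for Irf8, at 4.21 CPM against 5.72 in the Cd3g gate, for Elane, at 4.995 against 5.54, and for Cebpa, at 1 UMI against 4, and the interval of each of these ratios included 1. The share of all genes lying between these gates was not counted, and 36 and 70 Tcf7 barcodes were also in the Lmo2+Mef2c gate. The count of members at least 2-fold higher in the Tcf7 gate than in the Cd3g gate was 8, all but Irf8. Of all genes tested 1.44% passed, both with the libraries summed. The libraries differed in this: all 9 passed in FL001 and 3 in FL002, namely Mpo, Lyz2 and Csf1r. The share of all genes was not counted by library, so whether this difference is particular to the members was not tested. Mpo was at 285 and 164 CPM in the Tcf7 gate and at 40.7 and 60.2 in the Cd3g gate, and its share of barcodes, 64.0% and 41.7%, was closer to that of the Lmo2+Mef2c gate than its level was. Tcf7 barcodes were deeper, with medians of 9459 and 5733 UMIs against 7448.5 and 5448.5. After thinning Mpo was in 25.9% and 16.7% of them, against 42.0% and 37.0% in the Lmo2+Mef2c gate. Before thinning, Mpo-positive barcodes of the Tcf7 gate held 4.27 and 2.31 UMIs each. Prtn3 was at 126 and 47.3 CPM in the Tcf7 gate, and Lyz2 at 46.6 and 12.1. In FL001, 2 barcodes that were also in the S100 gate held 45 and 24 of its 107 Lyz2 UMIs. They held 71 and 33 of its 288 Prtn3 UMIs and 69 and 68 of its 653 Mpo UMIs. The Elane UMIs of the Tcf7 gate came almost wholly from 1 barcode in each library that was also in the S100 gate and held 90.9% and 78.9% of them.

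**Figure D5:**
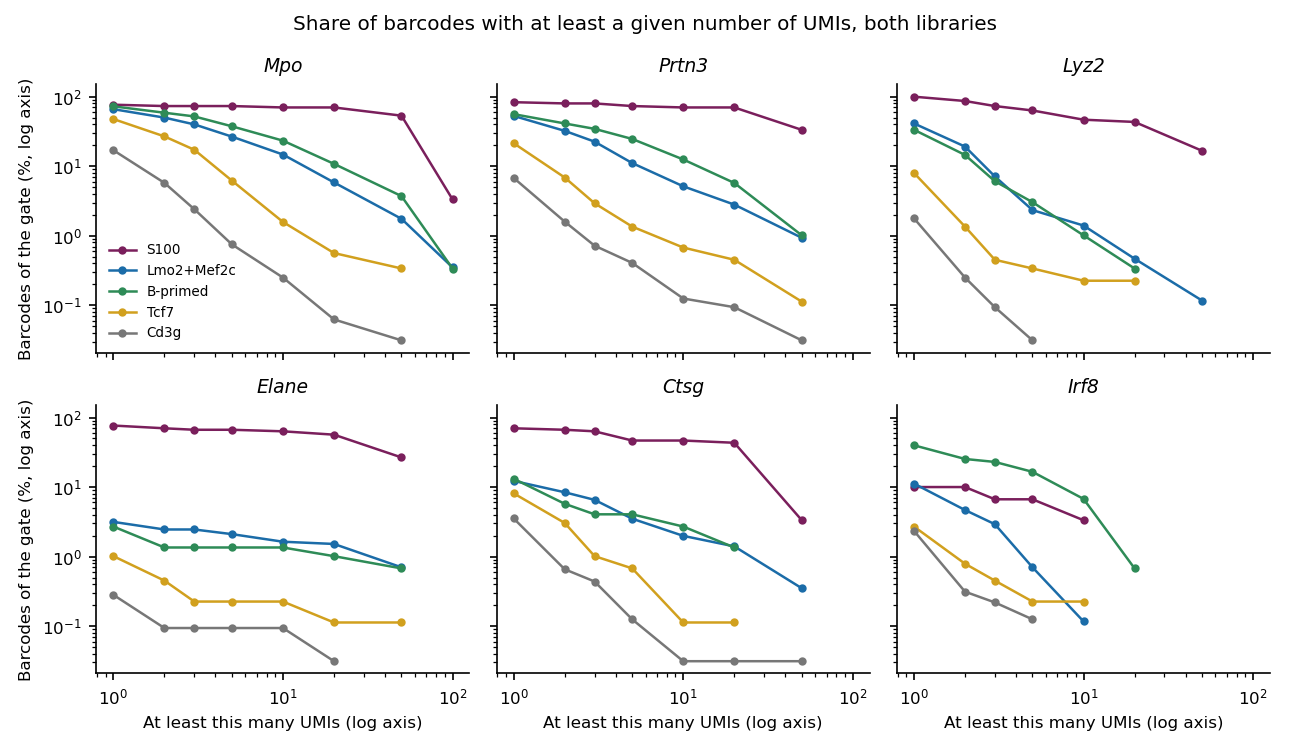
Percent of barcodes of a gate (log axis) with at least a given number of UMIs (log axis) for 6 members, both libraries together, 1 line per gate. The Mpo line of the Lmo2+Mef2c gate falls steadily from 66.1% at 1 UMI to 5.84% at 20, whereas the Elane line stays flat, from 3.15% to 1.52%.

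With barcodes of the S100 gate left out of the others, 5 members passed between the Tcf7 and Cd3g gates, and Elane and Ms4a3 were then lower in the Tcf7 gate, at ratios of 0.355 and 0.737. Within the Tcf7 gate, the barcodes with no UMI of Cd3g had Mpo at 348 and 217 CPM, and those with 1 or 2 UMIs had 199.7 and 100.3. Outside both Lmo2+Mef2c gates (193 and 568 barcodes) Mpo was still at 231 and 160 CPM and in 64.2% and 40.5% of barcodes, while Irf8 was at 4.93 and 3.37. In FL001 these still included a barcode of the S100 gate with 68 UMIs of Mpo, which is part of the 231 CPM. In the 127 and 425 Tcf7 barcodes with no UMI of Lmo2 or Mef2c Mpo was at 258 and 134 CPM and in 61.4% and 36.9% of barcodes.

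The Il2ra gate shared most barcodes with the Cd3g gate. Elane, Ms4a3 and Csf1r, 3 members, were at least 2-fold higher in it with both libraries summed, against 0.181% of all genes tested. This differed between the libraries: 6 members passed in FL001, which added Mpo, Prtn3 and Ctsg, and Csf1r was the 1 that passed in FL002. Here too the share of all genes was not counted by library. Elane was at 18.9 CPM in the Il2ra gate of FL001, but 2 barcodes that were also in the S100 gate held 97.5% of its UMIs, and it was at 4.41 in FL002. The same 2 barcodes held 13 and 39 of the 54 Ms4a3 UMIs of the Il2ra gate in FL001, and 49 and 43 of the 177 of Ctsg. They also held 59 and 58 of the 277 Prtn3 UMIs and 98 and 54 of the 561 Mpo UMIs. The count was not recomputed without these barcodes, so for Elane and Ms4a3 it cannot be read apart from them. In FL002 the Il2ra gate held 0 barcodes of the S100 gate. There the ratios to the Cd3g gate were 0.797 (0.515 to 1.22) for Elane and 0.914 (0.451 to 1.81) for Ms4a3. In the Il2ra gate Ms4a3 was at 8.39 and 1.91 CPM and Csf1r at 1.40 and 1.67, on 9 and 14 UMIs. Mpo was at 87.1 and 77.3 CPM, which was 2.14-fold (1.87 to 2.45) and 1.28-fold (1.15 to 1.43) above the Cd3g gate. The 93 and 316 Il2ra barcodes with at most 2 UMIs of Cd3g had Mpo at 393 and 167 CPM in 64.5% and 38.3% of barcodes. The 2 S100 barcodes of FL001 had 0 UMIs of Cd3g, so their 98 and 54 Mpo UMIs were part of the 393 CPM. In the Cd3g gate Mpo was at 81.4 and 77.5 CPM where Cd3g had 3 to 9 UMIs and at 31.3 and 51.3 where it had 10 or more. As these gates were set on the same UMIs of Cd3g, this is an order along that gene and not a time course.

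Free RNA was read from the barcodes of 1 to 100 UMIs, 308744 in FL001 and 293224 in FL002. There Mpo was at 303 and 247 CPM, Prtn3 at 101 and 94.3, and Elane at 25.4 and 18.7, while Csf1r and Cebpa rested on 3 and 2 UMIs each. Above this level by 2-fold were 8 members in the Lmo2+Mef2c gate, all but Irf8, against 3.45% of all genes tested. That gate included the barcodes rich in Elane. In its barcodes with 0 UMIs of Elane, Mpo was at 585 and 575 CPM and Prtn3 at 239 and 252. Lyz2 was at 117 and 116 CPM in those barcodes, against 76.1 and 44.5 in free RNA. In the B-primed gate 7 passed, all but Ms4a3 and Lyz2, against 3.8%. Csf1r, which reached 5 CPM through this gate, cannot be weighed against that share. By library, Ctsg did not pass in FL001, at 1.88-fold, and Lyz2 did pass in FL002, at 2.36-fold. Irf8 was 13-fold (9.38 to 18.4) above free RNA in the B-primed gate and 1.76-fold (1.24 to 2.55) in the Lmo2+Mef2c gate, and Mpo was 3.53-fold and 3.09-fold above it.

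In the Tcf7 gate 0 members were 2-fold above free RNA, against 1.01% of all genes tested, and the ratio of Mpo was 0.770 (0.696 to 0.852). A level at or below free RNA is not read as expression on its own. S100a8 and S100a9, genes of myeloid cells, were taken as a measure of free RNA in the Cd3g gate. Their level there was 1.59% of that in free RNA in FL001 and 4.28% in FL002. The level of Mpo in the Cd3g gate was 13.4% and 24.3% of its free level and that of Prtn3 19.2% and 28.3%, while Lyz2 stood at 3.14% and 10.2%. These genes thus did not keep 1 ratio between free RNA and the Cd3g gate. Elane, at 0.942% and 29.6%, had 2 UMIs in the Cd3g gate of FL001, and of its 61 in FL002 93.4% lay in 3 barcodes. In the Tcf7 gate, which included 2 and 1 barcodes of the S100 gate, S100a8 and S100a9 stood at 127% and 10.4% of their free level. Mpo stood there at 93.9% and 66.4% of its free level, and Prtn3 at 124% and 50.2%. The part of doublets and of free RNA in these counts was not tested.

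The members were also read side by side in the same barcode. At least 1 member had a UMI in all but 12.2% and 17.6% of Lmo2+Mef2c barcodes, and 6 or more had one in 4.86% and 2.99%. In the Cd3g gate 75.2% and 76.0% of barcodes had none, and in the S100 gate none lacked all members. After thinning, Prtn3 was in 36.0% of the Lmo2+Mef2c barcodes with Mpo and 17.9% of those without, and Elane in 6.34% and 0% (0 of 525, an upper 95% limit of 0.700%). Ms4a3 was in 17 of 21 barcodes with Elane and 4 of 835 without.

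Profiles over the 6 gates in the 2 libraries, 12 values of log2(CPM + 1), split the granule genes in the same way, but only slightly. Between Mpo, Prtn3 or Lyz2 and Elane, Ctsg or Ms4a3 the Pearson correlations still ran from 0.961 to 0.979. The gene most like Mpo was Prtn3, with a Pearson correlation of 0.995, followed by Stk26 and Lyz2, and the genes most like Elane were Ms4a3 (0.994), Ctsg (0.992) and Hp, which encodes haptoglobin. Ctsg and Ms4a3 named each other and Elane. Nearest to Csf1r were Ifngr2, Cst3 and Erp29, nearest to Cebpa were Eif4a2, Hexa and Mrfap1, and nearest to Irf8 were Ms4a6c, Ckap2 and Ly9, at 0.979, 0.948 and 0.941. Gates share barcodes and libraries, so these are descriptions over 12 values. Mpo and Irf8 had a correlation of only 0.354.

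Other genes of the myeloid programmes were taken from 3 lists. Of 15 further granulocyte-monocyte and primary granule genes, 9 were at least 4-fold higher in the S100 gate than in the Lmo2+Mef2c gate and 5 at least 4-fold higher in the Lmo2+Mef2c gate than in the Cd3g gate, where 1 went the other way. Of all genes tested, 1.49% and 1.47% passed these folds, and 11 of the 15 reached 5 CPM over all kept barcodes. Most of the 5 and some of the 9 were below that minimum. Hp, which passed both folds, had 128 of its 246 UMIs in the S100 gate. These counts are thus descriptions and cannot be weighed against those shares. Plac8, Srgn and Spi1, the PU.1 gene, led in the Lmo2+Mef2c gate at 848, 620 and 142 CPM, and Plac8, Srgn and Clec12a in the S100 gate at 3857, 2013 and 842. Plac8 was also at 2110 CPM in the Cd3g gate, above its level in the Lmo2+Mef2c gate.

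Of 11 secondary granule and late neutrophil genes 9 passed in the S100 gate, against 1.49% of all genes tested. Only 3 of the 11, Ngp, Camp and Ltf, reached 5 CPM over all kept barcodes. They reached it through the S100 gate itself, which held 1128 of 1133, 820 of 825 and 142 of 186 of their UMIs. The count of 9 is thus a description and cannot be weighed against that share. Ngp, Camp and Ltf led in the S100 gate at 5458, 3968 and 687 CPM, and in the Lmo2+Mef2c gate the highest were Cybb, Fcnb and Mmp9 at 7.77, 4.16 and 3.97 CPM. The late granule genes thus lacked the broad low level of Mpo, with Camp at 0.723 CPM and Ngp at 0.181. Of 16 monocyte, macrophage and dendritic cell genes 9 were at least 2-fold higher in the B-primed than in the Lmo2+Mef2c gate, the side of Csf1r and Irf8, and 1 was lower. Of all genes tested, 1.25% were higher and 2.11% lower by this fold, but only 4 of the 16 reached 5 CPM over all kept barcodes. This count of 9 is thus also a description. The 16 genes were led in the Lmo2+Mef2c gate by Klf4, Ccr2 and F13a1 at 21.5, 13.9 and 10.8 CPM. In the S100 gate they were led by Ly6c2, F13a1 and Cd14 at 165, 121 and 62.9, and 12 of the 16 were at 0 there. The S100 gate had only 206657 UMIs in all, so 0 UMIs does not show that a gene was absent.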

How the data were processed

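The authors deposited, for each library, an unfiltered matrix of whole UMI counts made with 10X Chromium 3′ libraries, an Illumina NextSeq and CellRanger; nothing was normalized. The version of CellRanger is not given in the sources used here. The submitters' processing notes name mm9, yet 28339 of the 28692 gene identifiers are in GENCODE M21 (GRCm38), whose coordinates are used. Counts were read with Python 3.11.15, numpy 2.4.6 and scipy 1.17.1. Summed UMIs were scaled to CPM with exact Poisson intervals, shares of barcodes have exact binomial intervals, and ratios have exact conditional intervals, all at 95% and for counting error only. In counts of members past a fold, and in ratios under the alternatives, fewer than 3 UMIs in the lower group were set to 3. The libraries are 1 group, so no test between groups was made and no p-value is given. Counts of members are set beside 8834 genes of at least 5 CPM, whose shares were counted with both libraries summed and not by library. The fold step was tested on simulated data for the Lmo2+Mef2c over Cd3g comparison only, with independent counts per gene. It did not cover the small S100 gate, overlap of gates or UMIs gathered in a few barcodes. Doublets were removed only in an alternative, with scores from scanpy 1.11.5. The text names the members, the gate genes, the 3 leading genes of each list in the Lmo2+Mef2c and S100 gates and the 3 genes nearest to each member by profile. The members, gates and lists were chosen with earlier results of these data known, and Ngp, Pf4, Camp, Plac8 in the Cd3g gate and the splits by single genes were singled out after their values were seen. Cebpd and Itgam of the lists were not analysed here.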

Additional observations from a re-analysis of the deposited data

Results flagged for a closer look

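The barcodes that met no gate, 161 in FL001 and 496 in FL002, were used in no comparison. They held more than 3 UMIs of every member. Mpo was at 524.7 CPM in them, Prtn3 at 183.7, Lyz2 at 66.71, Ctsg at 49.66, Ms4a3 at 29.92, Elane at 27.82, Irf8 at 25.13, Csf1r at 7.778 and Cebpa at 7.18. Mpo was in 60.9% of these barcodes in FL001 and 54.2% in FL002. Of the 90 Elane UMIs in FL002, 96.7% lay in 6 barcodes, and FL001 had 3 Elane UMIs in all. There are no control samples, and these levels were not tested.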

How the results depend on the processing

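No paired analysis was possible because the 2 libraries are 1 group and no test was made. Of 107 counts of members under the alternatives, 95 were within 1.5 times the reported count. The count of members higher without B priming, 1, became 0 without the highest Scrublet scores, without the S100 barcodes, with B priming at 1 UMI and after thinning, 2 with Lmo2+Mef2c of at least 4, and ran from 0 to 3 with 1 library alone. The count for Tcf7 over Cd3g, 8, became 5 without the S100 barcodes and 3 to 9 with 1 library alone, 3 being FL002. It became 5 when barcodes of the Lmo2+Mef2c gates were taken out, an alternative chosen after seeing the data. The count for Tcf7 over free RNA, 0, became 1 with free RNA from barcodes of 1 to 20 UMIs. Without barcodes of 5 or more Elane UMIs, also chosen after seeing the data, the count for Lmo2+Mef2c over free RNA fell from 8 to 5. Elane then stood at 0.130 of free RNA and Ms4a3 at 0.663, and Elane at 0.0775 in the B-primed gate. Tcf7 over Cd3g turned below 1 for Elane (0.355) and Ms4a3 (0.737) without the S100 barcodes, for Elane (0.902, against 66.9 in FL001 alone) and Cebpa (0.724 against 2.43) in FL002 alone, and for Cebpa after thinning (0) and outside the Lmo2+Mef2c gates (0.952). The cause was not tested. Subtracting free RNA moved no count, but the amount taken was small. It was set from S100a8 and S100a9 in the Cd3g gate, at 1.59% of the free level in FL001 and 4.28% in FL002. For Mpo this was 4.82 and 10.6 CPM, so the counts could hardly move. Of the ratios of single members, 922 of 963 kept their side of the fold. Shares and UMIs per positive barcode have no value under free RNA subtraction. Few UMIs limit Csf1r and Cebpa, and the S100 gate is limited by its 30 barcodes.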
